A study of Mus musculus with 11 samples.

Results

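The comparison is between 3 libraries made from cells sorted out of control MC38 tumours and 3 libraries of control MC38 tumours, 6 of the 11 bulk RNA libraries in the series. MC38 is a mouse colon carcinoma line, and in both groups the line carried shNC, a control short hairpin RNA, with the genotype label WT. The sorted libraries were chosen by titles that end in Tcell and are labelled with the cell line T cell and the cell type Immune cell. The tumour libraries are labelled with the line MC38, the tissue Tumor and the cell type mesenchymal cell. Every sorted title joins several numbers, which the labels do not explain, and the labels name no sorting marker. Read digit by digit, some numbers recur between sorted titles and between sorted and tumour titles. Whether these libraries share animals is not stated. Strain, sex, age, treatment and time are not given for either group. Nothing in the labels states that the libraries of a group stem from different animals or cultures. A p-value here reflects only how far these 3 libraries of a group spread, which may be technical. The comparison asked which gene programmes were present only in sorted libraries, only in tumour libraries, or in both. In bulk RNA, fewer cells of a type and less RNA per cell cannot be told apart, and this applies to every level below.

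T cells carry an antigen receptor made of the T cell receptor chains and the CD3 proteins, and CD8 T cells kill with perforin and granzymes. Macrophages are phagocytes that hold large amounts of lysozyme, complement C1q and lysosomal proteases, and they can present antigen on MHC class II molecules. MC38 is a poorly differentiated line. Collagens and fibronectin, which mesenchymal cells secrete, form the matrix around tumour cells. Keratins such as Krt8 and the cadherin gene Cdh1 mark differentiated gut epithelium.

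Total counts ran from 14944013 to 16654736 in the sorted libraries and from 14968855 to 19099350 in the tumour libraries. Across 16104 genes tested, log2 levels of sorted libraries correlated with each other at 0.985 to 0.986, tumour libraries at 0.972 to 0.985, and sorted with tumour libraries at 0.829 to 0.858. Those are descriptions across genes, which are not independent replicates. A count of 0 allows up to 3 counts, which is 0.146 to 0.213 CPM (the depth-scaled count) across the 6 libraries and covers counting error only. Libraries are named by group and number: sorted replicates 1 to 3, and tumour replicates 1, 2 and 6 as in their titles.

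The sorted libraries held the markers of T cells and those of macrophages, and the most abundant macrophage genes stood higher per length. Cd3e, a CD3 chain of the T cell receptor complex, measured 68.4, 58.8 and 32.6 CPM in the sorted libraries and 0 counts in each tumour library. Lyz2, the lysozyme of myeloid cells, measured 5832, 6766 and 7177 CPM in the sorted libraries against 10.8, 3.16 and 4.92 in the tumours. On the length-corrected FPKM scale that the authors deposited, the mean level in sorted libraries was 4761 for Lyz2, 1349 for the lysosomal protease gene Ctss and 1085 for C1qb. On the same scale it was 71.5 for the receptor constant region Trbc2, 59.9 for Trac, 23.2 for Cd8b1, 11.3 for Cd3e and 6.49 for Cd4. Not every macrophage gene stood above these: Csf1r was at 57.8, Adgre1 at 45.7 and Mertk at 8.5. The granzyme gene Gzmf, of cytotoxic lymphocytes, stood at 201.5. Fn1, fibronectin, stood at 273 FPKM in sorted libraries and 451 in tumours. The label T cell thus covered libraries in which the most abundant myeloid and tumour matrix genes exceeded the T cell receptor genes in level.

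Tumour libraries held little leukocyte RNA. Ptprc, the CD45 surface protein of all leukocytes, measured 307, 271 and 265 CPM in sorted libraries and 0.985, 0.243 and 0.254 in tumours. Tumour replicate 1 was the highest of the tumour libraries for Ptprc, Lyz2 and C1qb.

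Single tumour libraries stood apart, and results that rest on them are given with and without them. Tumour replicate 1 measured 1036 CPM of Col1a2, a chain of type I collagen, where the other tumour libraries both measured 165 and the sorted libraries 414, 321 and 375. Dusp1, an immediate early phosphatase, measured 175 CPM in tumour replicate 1 against 750 and 840 in the other tumours. Tumour replicate 2 measured 39.6 CPM of Cd74, the MHC class II invariant chain, against 266 and 193 in the other tumours. Single genes were also uneven among sorted libraries: C5ar1 measured 19.1 CPM in sorted replicate 1 against 180 and 193 in the others, and Cd163 measured 3.20 CPM in sorted replicate 2 against 26.9 and 30.2.

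**Figure D1:**
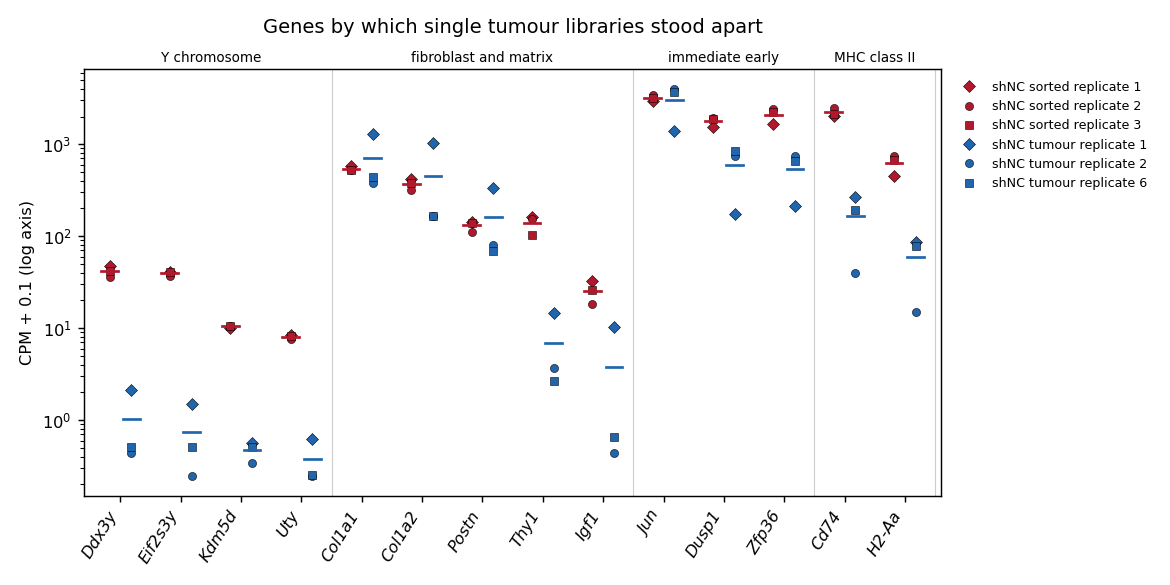
Levels in every library of Y-linked, fibroblast and matrix, immediate early and MHC class II genes, as CPM + 0.1 on a log axis; points are libraries and bars are group means (n = 3 each). Tumour replicate 1 is the highest tumour library for Col1a2 (1036 CPM) and the lowest for Dusp1 (175 CPM), and tumour replicate 2 is the lowest for Cd74 (39.6 CPM).

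The difference between the groups was large in one direction and small in the other. With edgeR's quasi-likelihood test and a Benjamini-Hochberg adjusted p under 0.05, 4995 of 16104 genes differed (31.0%). Of these, 3078 genes were higher in sorted libraries (19.1% of genes tested) and 1917 were lower (11.9%). At least 8-fold differences passed for 1270 genes that were higher in sorted libraries (7.89%) and for 3 that were lower (0.0186%). At least 2-fold differences passed for 2213 higher genes (13.7%) and 260 lower ones (1.61%).

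Among genes lower in sorted libraries, the median level there was 62.4% of the tumour level, with quartiles of 54.8% and 69.8%, and 1657 of them (86.4%) differed by less than 2-fold. Genes higher in sorted libraries had a median log2 fold change of 2.07, and 41.3% of them differed by at least 8-fold. Levels did not overlap between groups for 4122 genes in the direction of sorted libraries (25.6%) and for 3482 in the direction of tumours (21.6%). Scaling by library size alone moved the median log2 fold change of all genes by -0.15, and higher genes then made up 45.8% of calls in place of 61.6%. The count of lower calls also depended on single libraries: it was 895 without sorted replicate 2, 961 without sorted replicate 3 and 1175 without sorted replicate 1.

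**Figure D2:**
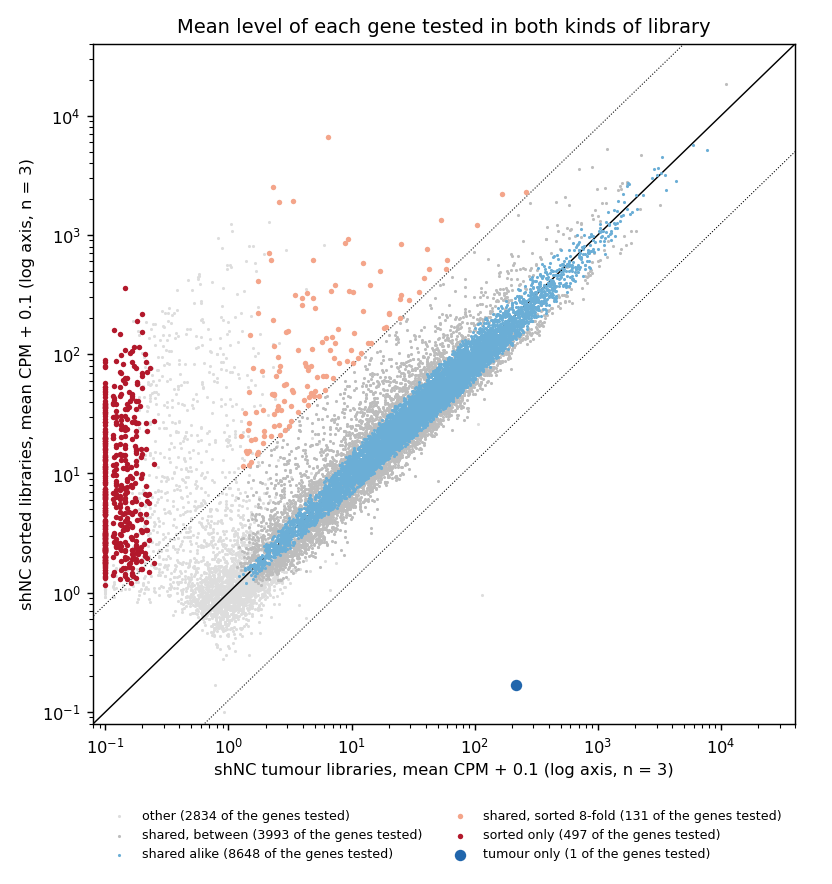
Mean level of each gene tested in tumour (x) and sorted (y) libraries, as CPM + 0.1 on log axes (n = 3 each), coloured by expression class; the solid line marks equal levels and the dotted lines 8-fold differences. The 497 sorted only genes form a column at the left edge, while a single gene, Gm22133, holds the matching place for tumours.

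Expression classes by fixed limits showed the same one-sidedness. Sorted only was defined as at least 1 CPM in all 3 sorted libraries and at most 3 counts in each tumour library, and 497 genes met it, 434 of them protein-coding and 217 with no count in any tumour library. They took 0.839% ± 0.0486 (SD, n = 3) of the counts of sorted libraries. Tumour only, the reverse limits, held 1 gene. Shared genes, at 1 CPM or more in all 6 libraries, numbered 12772. In 8648 of these the 95% interval of the log2 fold change lay within -1 to 1, so the groups differed by less than 2-fold; they are called shared alike. Another 131 shared genes were at least 8-fold higher in sorted libraries, where they took 3.86% of counts against 0.165% in tumours, and no shared gene was at least 8-fold higher in tumours.

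The single tumour only gene was Gm22133, listed as a miRNA gene at chr7:45458089-45458197 (mm10), inside the listed span of Ftl1, the ferritin light chain gene, at chr7:45457944-45459884. It had 4072, 4710 and 3011 counts in the tumour libraries and 1 count in each sorted library. Ftl1 itself went the other way, at 1052, 1526 and 1492 CPM in sorted libraries and 960, 1011 and 748 in tumours, with a log2 difference of 0.58 ± 0.18 (SE), an adjusted p of 0.0455 and no call without sorted replicate 2 or 3 or tumour replicate 1 or 6. Reads of overlapping genes cannot be separated here, since the counting rule and strand use are not given. The other genes at least 8-fold lower in sorted libraries were near the limit of detection: Gm47204 had 12, 13 and 20 counts in tumours and 0 in sorted libraries, and 2310026L22Rik had 11, 12 and 14 counts in tumours and did not pass without sorted replicate 2 or 3. By these limits no protein-coding gene was tumour only.

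The sorted only genes with the highest FPKM were effector and myeloid genes. Gzmd and Gzmb, granzymes of cytotoxic lymphocytes, measured 104, 86.6 and 152 CPM and 180, 162 and 123 CPM in sorted libraries, with at most 3 counts in any tumour library. Osm, the cytokine oncostatin M, measured 150, 283 and 220 CPM, and Itgam, the CD11b integrin of myeloid cells, measured 362, 311 and 396 CPM. S100a9, a neutrophil calcium-binding protein, measured 22.9, 56.8 and 28.5 CPM and had no tumour count, so it was at least 183-fold higher against 3 counts per library. Ifnb1, interferon beta, measured 38.6, 30.0 and 30.4 CPM, also with no tumour count (at least 167-fold). Ifng, the interferon made by T and NK cells, measured 98.0, 95.3 and 35.0 CPM against 2 or 3 counts in each tumour library. The remaining ones were Bcl2a1a, Nkg7, Cd83, Cd300c2 and F7, with mean levels from 41.2 to 189.9 CPM in sorted libraries. Gzmd and Bcl2a1a belong to families of near-identical copies, so the split of reads between copies is uncertain.

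The class repeated in libraries that the comparison did not use. In 2 sorted and 3 tumour libraries whose tumour line carried a hairpin against Fgf21, 390 of the 497 genes (78.5%) met both limits. Of the genes called higher here, 99.4% were also higher in those sorted libraries than in those tumours, and of the genes called lower, 99.0% were also lower. The matching share over all genes tested is not given here. One of these 2 sorted libraries carries a genotype label that names FGF22.

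Promoters of the sorted genes held the binding letters of PU.1 more often than other promoters. PU.1, the product of Spi1, is a transcription factor that sets myeloid and B cell fate. Spi1 itself measured 139, 198 and 179 CPM in sorted libraries and at most 0.254 CPM in tumours. The motif GAGGAAGT was searched on both strands in the RefSeq promoters of build GRCm38.p6, each 300 bases long from 250 bases before the gene start. It stood in 42 of 445 promoters of sorted only genes (9.44%) and in 15 of 135 promoters of the shared genes at least 8-fold higher in sorted libraries (11.1%). A gene with several promoters counts more than once: the 445 promoters belong to 363 genes and the 135 to 94. Across all 32851 promoters the share was 3.20%, in the 13837 promoters of genes tested 3.28%, in shared alike genes 2.59% and in genes called lower 2.23%. The SP motif GGGGCGGGG was in 8.99% of sorted only promoters, 11.9% of those at least 8-fold higher, 22.3% of shared alike promoters and 11.5% of all. The E2F motif, TTTGGCGC or TTTCCCGC, was in 1.35%, 0.741%, 3.59% and 1.57% of the same sets. In all, 7 motifs were searched on both strands, and matches of different motifs can overlap. The interferon-stimulated response element, searched as TTTC, any 2 bases and TTTC, was in 5.62%, 3.70%, 2.90% and 3.44%. The AP-1 motif TGANTCA was in 6.74%, 13.3%, 4.61% and 7.81%. The TATA box TATAAA was in 8.76%, 14.8%, 6.15% and 13.6%, and CCAAT in 32.8%, 31.1%, 37.9% and 37.4%. In promoters of genes tested the shares were 20.2% for SP, 2.77% for E2F and 3.25% for the interferon element. They were 5.55% for AP-1, 7.61% for TATA and 37.7% for CCAAT, so some comparisons change direction with the reference set. These shares are descriptions, and a match is not evidence of binding.

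Promoters of 4 such genes are shown because each pairs a PU.1 match with a gene that separated the groups, with the match in capitals. All are on the plus strand, 5′ to 3′, with 250 bases before the RefSeq start and 30 after, at chr3:95526536-95526815 for Ctss, chr9:7344147-7344426 for Mmp12, chr3:90668821-90669100 for S100a8 and chr17:57278850-57279129 for Vav1.
Ctss: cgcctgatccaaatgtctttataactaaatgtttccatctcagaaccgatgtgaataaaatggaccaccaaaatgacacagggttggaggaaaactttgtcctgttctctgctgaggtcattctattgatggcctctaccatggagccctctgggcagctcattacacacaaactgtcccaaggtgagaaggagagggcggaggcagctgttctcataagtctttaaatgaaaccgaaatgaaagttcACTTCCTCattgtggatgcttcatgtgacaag
Mmp12: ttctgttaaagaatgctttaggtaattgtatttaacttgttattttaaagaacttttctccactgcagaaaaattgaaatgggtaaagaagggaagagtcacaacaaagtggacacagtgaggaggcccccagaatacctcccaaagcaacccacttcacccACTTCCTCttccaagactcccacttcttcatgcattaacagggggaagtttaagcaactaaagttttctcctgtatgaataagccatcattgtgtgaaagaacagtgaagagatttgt
S100a8: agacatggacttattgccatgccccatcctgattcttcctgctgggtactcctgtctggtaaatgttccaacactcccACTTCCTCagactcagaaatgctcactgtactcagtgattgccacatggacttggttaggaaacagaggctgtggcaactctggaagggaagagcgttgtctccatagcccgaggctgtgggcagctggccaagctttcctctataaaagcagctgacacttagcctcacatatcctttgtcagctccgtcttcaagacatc
Vav1: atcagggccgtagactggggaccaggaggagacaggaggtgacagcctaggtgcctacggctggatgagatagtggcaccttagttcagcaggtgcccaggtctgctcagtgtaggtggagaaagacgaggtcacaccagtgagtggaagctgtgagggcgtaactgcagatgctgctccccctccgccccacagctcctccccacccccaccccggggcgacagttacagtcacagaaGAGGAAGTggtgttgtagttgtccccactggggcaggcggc
The match lies on the reverse strand in Ctss, Mmp12 and S100a8 and on the forward strand in Vav1. It starts 2 bases before the gene start in Ctss, 88 in Mmp12, 172 in S100a8 and 11 in Vav1. Ctss, the antigen-processing protease cathepsin S, measured 2111, 2391 and 3150 CPM in sorted libraries and 4.27, 1.21 and 1.17 in tumours. Mmp12, the macrophage elastase, measured 1922, 1680 and 2235 CPM against 6.63, 1.65 and 1.47. S100a8, the partner of S100a9, measured 14.2, 32.5 and 21.3 CPM against 3, 0 and 3 counts. Vav1, a signalling factor of all blood lineages, measured 76.4, 106 and 84.0 CPM and had no tumour count (at least 452-fold). The 4 genes were picked from the sorted only genes and the shared genes at least 8-fold higher in sorted libraries. Their separation therefore followed from that choice and says nothing about the motif.

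T cell genes were present almost only in sorted libraries. Of 22 T cell identity genes tested, 21 were higher in sorted libraries, all by at least 8-fold, and 16 were sorted only. The list's median log2 fold change was 10.06, or 7.66 with the 11 members that had no tumour count set at their bound, beside -0.02 over all genes tested. The same share over all genes tested was 19.1% higher and 7.89% at least 8-fold higher. With 11.9% lower, these shares are the reference for the counts of every list below with all libraries. Cd8a, the CD8 co-receptor chain, measured 102, 83.2 and 36.9 CPM against 3, 0 and 6 counts in tumours. Cd4 measured 38.4, 40.4 and 22.7 CPM with no tumour count (at least 172-fold). Sorted replicate 3 was the lowest for Cd3e, Cd8a and Cd4, and the list's summed level was 1051, 947 and 551 CPM. The exception was Tcf7, a transcription factor of naive and memory T cells, at 36.3, 34.1 and 30.9 CPM in sorted libraries and 43.2, 45.0 and 35.8 in tumours (log2 fold change -0.29 ± 0.14, adjusted p = 0.144), though it passed as lower with scaling by library size alone.

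All 18 cytotoxic effector genes tested and all 10 inhibitory receptor genes were higher in sorted libraries. Prf1, perforin, measured 69.9, 65.6 and 72.7 CPM against 3, 0 and 2 tumour counts. Among inhibitory receptors, Pdcd1 and Ctla4, which encode PD-1 and CTLA-4, had no tumour count and measured 10.9 to 28.1 and 28.8 to 39.1 CPM. Havcr2 and Lag3 were detected in tumours too: Havcr2, or TIM-3, measured 88.3, 94.1 and 94.3 CPM against 16.9, 8.16 and 8.43, a log2 fold change of 3.06 ± 0.28 (adjusted p = 1.07e-04). Of 9 NK cell genes tested, 8 were higher in sorted libraries. Klra4, a Ly49 receptor gene of a family of near-identical copies, was lower, at 23.4, 19.8 and 19.8 CPM against 47.5, 41.7 and 46.4 (adjusted p = 3.98e-04).

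Macrophage genes were at low level in tumours and abundant in sorted libraries. All 19 macrophage and monocyte genes were higher in sorted libraries, 18 by at least 8-fold, with summed levels of 12971 to 16094 CPM against 46.8 to 64.6 CPM in tumours. By the limits above, 4 of the 19 were sorted only and 5 were shared, Lyz2 among the latter. Csf1r, the growth factor receptor of macrophages, measured 411, 513 and 486 CPM against 6, 11 and 10 counts, and Adgre1, or F4/80, measured 195, 185 and 192 CPM against 0, 0 and 4 counts. Mertk, a receptor for dying cells, had the smallest difference of the list, at 47.2, 55.4 and 60.4 CPM against 5.78, 10.5 and 10.7 (log2 fold change 2.58 ± 0.24). All 20 pan-leukocyte signalling genes and all 5 phagocyte oxidase genes were higher in sorted libraries, as were 16 of 18 Fc and pattern receptor genes. Tlr3 and Tlr4 did not pass: Tlr3, an endosomal RNA sensor, measured 16.0, 14.6 and 15.1 CPM against 17.4, 15.8 and 19.1, and Tlr4 varied within both groups, from 11.6 to 59.9 and from 5.71 to 51.4 CPM.

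Other blood lineages were present at lower levels. All 8 neutrophil genes tested were higher in sorted libraries, but Ly6g, the surface marker of the lineage, had 3 counts in all and the granule gene Camp 1. The granule gene Ltf had 26, 35 and 11 counts in sorted libraries and 8, 0 and 0 in tumours (adjusted p = 0.0438), and when 1 library was left out it passed only without tumour replicate 1. Of 6 B and plasma cell genes tested, 4 were higher in sorted libraries. Ighm, the IgM heavy chain, measured 31.7, 21.96 and 26.8 CPM, while Ms4a1, the CD20 protein of B cells, was at 0.213 to 0.341 CPM in sorted libraries. Of 8 dendritic cell genes tested, 6 were higher in sorted libraries. Itgax, the CD11c integrin that macrophages also use, measured 76.2, 89.9 and 97.0 CPM against 1, 0 and 0 counts, whereas Xcr1, of the cross-presenting subset, measured 2.90 to 4.63 CPM. Fscn1, an actin bundler of mature dendritic cells and of mesenchymal cells, was lower, at 116, 183 and 171 CPM against 215, 303 and 292 (adjusted p = 0.0206), but not without sorted replicate 1 or 3 or tumour replicate 6. Haemoglobin genes stayed at or below 1.33 CPM in every library, and Pf4, a platelet chemokine that macrophages also make, measured 383, 466 and 471 CPM in sorted libraries against 0.394 to 0.534 in tumours.

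**Figure D3:**
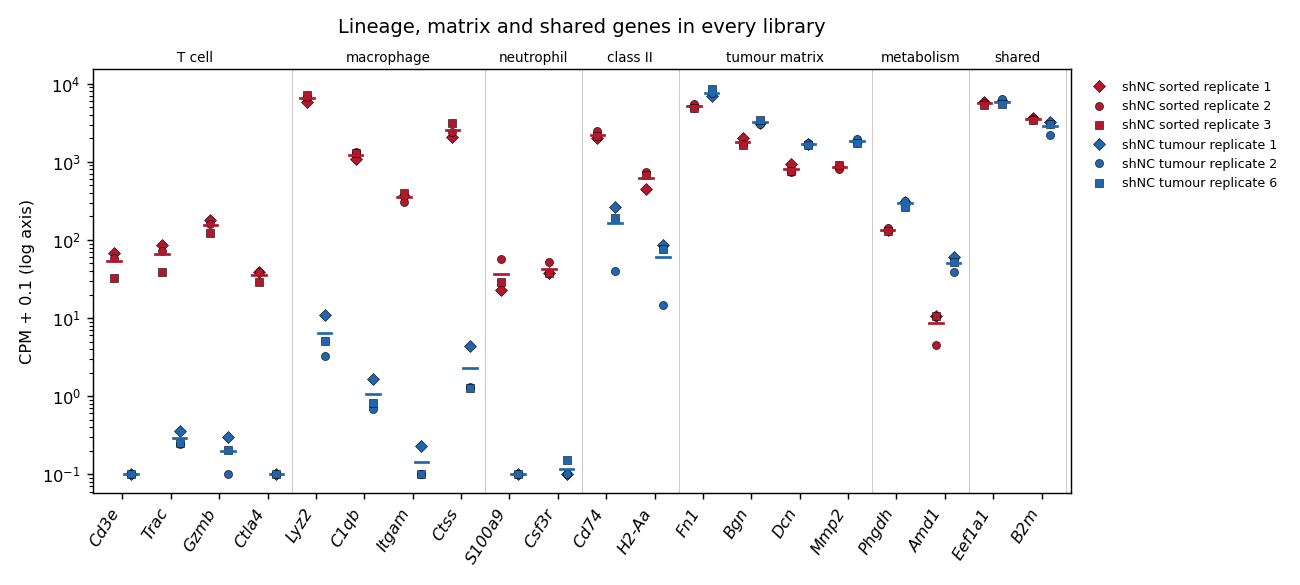
Levels in every library of T cell, macrophage, neutrophil, MHC class II, matrix, metabolic and shared genes, as CPM + 0.1 on a log axis; points are libraries and bars are group means (n = 3 each). Cd3e, Ctla4 and S100a9 have no tumour count, while Fn1 (4958 to 5472 CPM) and Dcn (750 to 940 CPM) remain high in sorted libraries.

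Antigen presentation divided by class. All 8 MHC class II genes were higher in sorted libraries, 6 by at least 8-fold. Cd74 measured 2048, 2481 and 2132 CPM against 266, 39.6 and 193, and H2-Aa, a class II chain, measured 447, 735 and 678 CPM against 87.4, 14.7 and 77.2. Ciita, the master regulator of class II genes, measured 24.2, 33.4 and 28.4 CPM against 7.75, 2.28 and 10.4 (log2 fold change 2.07 ± 0.46, adjusted p = 0.0106). MHC class I was shared: 9 of its 13 genes were shared alike. H2-D1, a class I heavy chain, measured 4218, 4605 and 4637 CPM against 3708, 2792 and 3457 (log2 fold change 0.43 ± 0.14, adjusted p = 0.0523, and 0.0324 without tumour replicate 1). B2m, the class I light chain, measured 3672, 3573 and 3450 CPM against 3255, 2230 and 3046. The 3 class I genes that passed were the immunoproteasome subunits Psmb8, Psmb9 and Psmb10, with log2 fold changes of 0.71 to 0.83. Without tumour replicate 1, 7 of 13 passed as higher, and without sorted replicate 3, 1 did.

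Cytokines and chemokines split by gene. Of 12 CC chemokine genes 11 were higher in sorted libraries. Ccl4, a T cell and macrophage chemokine, measured 410, 397 and 368 CPM against 16, 1 and 7 counts, while Ccl2, the main monocyte attractant, was made in both, at 1157, 1039 and 1249 CPM against 717, 401 and 571 (log2 fold change 1.03 ± 0.21). Of 10 CXC chemokine genes 6 were higher, 7 without tumour replicate 1 and 4 without any other single library. Cxcl2 measured 1049, 1540 and 1387 CPM against 80.2, 38.7 and 41.7. Its relative Cxcl1 measured 940, 875 and 866 CPM against 1701, 759 and 1168 and did not pass (adjusted p = 0.244, and 0.0210 without tumour replicate 2). Cxcl10, an interferon-induced attractant of T cells, was shared alike at 609, 510 and 584 CPM against 809, 376 and 511.

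Of 19 inflammatory cytokine genes, 9 were higher in sorted libraries and 2 lower; without tumour replicate 1, 13 were higher and 3 lower, and without sorted replicate 1 or 3, 1 was lower. Tnf measured 373, 484 and 409 CPM against 13, 2 and 3 counts, and Il1b measured 264, 494 and 288 CPM against 6, 2 and 7 counts. The lower ones were Il11 and Il34. Il34, a second ligand of the CSF1 receptor, measured 33.6, 30.2 and 36.0 CPM against 49.3, 81.0 and 67.5 (adjusted p = 0.00517), and Csf1, the first ligand, measured 254, 204 and 213 CPM against 391, 273 and 272 (adjusted p = 0.0694, and 0.049 without tumour replicate 2). Il11 was not called without sorted replicate 1 or 3. Among immune ligands, 11 of 15 were higher. Cd274, or PD-L1, measured 306, 282 and 407 CPM against 51.9, 21.8 and 32.3 (log2 fold change 3.23 ± 0.32, adjusted p = 1.51e-04), while Cd47, a signal against phagocytosis, was shared alike at 262, 238 and 275 CPM against 297, 282 and 280.

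Interferon-stimulated genes were all shared: 11 of 22 were shared alike, 11 were higher in sorted libraries and 1, Ifi44, was lower; a gene within 2-fold can still pass the test, so these counts overlap. Ifi44 passed in 1 of the 6 fits that leave out a library, the fit without tumour replicate 2. Rsad2 had the largest difference, at 184, 112 and 199 CPM against 26.1, 16.5 and 11.9 (log2 fold change 3.19 ± 0.33). Gbp2, an interferon-gamma-induced GTPase, measured 520, 487 and 491 CPM against 773, 298 and 493 and did not pass (adjusted p = 0.897). Complement genes showed both patterns. C3ar1, a receptor on myeloid cells, measured 222, 198 and 250 CPM against 1.84, 1.36 and 1.68, while C4b measured 574, 546 and 569 CPM against 1064, 502 and 792 (adjusted p = 0.174, and 0.0091 without tumour replicate 2). Of 14 complement genes 6 were higher in sorted libraries, and 9 without tumour replicate 1.

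The broadly expressed Y-linked genes Ddx3y, Eif2s3y, Kdm5d and Uty separated the groups. Ddx3y measured 47.3, 36.2 and 41.9 CPM in sorted libraries against 2.04, 0.340 and 0.406 in tumours (log2 fold change 5.58 ± 0.54, adjusted p = 1.31e-04). Eif2s3y measured 41.2, 36.7 and 40.7 CPM against 1.38, 0.146 and 0.406. Tumour replicate 1 was the highest tumour library for all 4 genes, as it was for Ptprc. Their X-linked counterparts Ddx3x, Eif2s3x, Kdm5c and Kdm6a were shared alike. Xist, the RNA of the inactive X, stayed at or below 0.460 CPM in all 6 libraries. Other tested genes listed on the Y chromosome were mixed. Mid1-ps1 was lower in sorted libraries, at 75.9, 67.6 and 63.3 CPM against 168, 111 and 116 (adjusted p = 0.00488). Gm21742 was also lower (adjusted p = 0.0213) and Gm20775 was higher (adjusted p = 0.0158). Gm47283, Gm21860 and Gapdh-ps15 did not pass.

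The genes lower in sorted libraries were lower by a moderate factor and were seldom absent. Of 20 matrix and crosslinking genes, 11 were lower in sorted libraries, where 11.9% of all genes tested were, and 1 was higher; without tumour replicate 1 the counts were 9 and 4. Fn1 measured 5126, 5472 and 4958 CPM in sorted libraries against 6908, 7597 and 8695 in tumours, 67.1% of the tumour mean (log2 fold change -0.58 ± 0.14, adjusted p = 0.0140). Bgn, the matrix proteoglycan biglycan, measured 1995, 1703 and 1623 CPM against 3149, 3059 and 3479 (54.9%). Lamb1, a laminin chain, measured 280, 273 and 270 CPM against 550, 532 and 538 (50.8%), and Hspg2, perlecan, stood at 49.8%. The member that was higher was Thbs1, thrombospondin, at 288, 506 and 485 CPM against 163, 30.0 and 57.3 (adjusted p = 0.0153); no member was higher without sorted replicate 2 or tumour replicate 6. Among 12 mesenchymal state genes 9 were lower, including Twist1 (53.5% of the tumour mean), Prrx1 (49.3%) and Sparc (60.0%), which mark mesenchymal cells. Zeb2 and Tgfbi, which macrophages also express, were higher, at 165% and 159%, and Vim was shared alike. Without sorted replicate 3 neither was called, and without sorted replicate 2 or tumour replicate 6 one of them was.

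Collagens followed the same pattern where tumour libraries were alike. Of 31 collagen genes tested, 12 were lower in sorted libraries and 1, Col20a1, was higher. Col6a1 measured 806, 847 and 753 CPM against 1266, 1319 and 1426 (60.0% of the tumour mean, adjusted p = 0.00175), and Col18a1 measured 124, 130 and 135 CPM against 258, 349 and 240 (45.9%). Type I collagen did not pass: Col1a1 measured 582, 524 and 518 CPM in sorted libraries against 1287, 376 and 435 in tumours, so sorted libraries lay above tumour replicates 2 and 6 and below tumour replicate 1. Without tumour replicate 1, Col1a1 and Col1a2 were higher in sorted libraries, with log2 fold changes of 0.43 and 1.18 (adjusted p = 0.0336 and 4.78e-04). Without tumour replicate 1, 6 collagens were higher and 11 lower, and without sorted replicate 1 none was higher.

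In the fibroblast list this split was wider. With all libraries 6 of 14 genes were lower and 1 higher, and without tumour replicate 1, 6 were lower and 7 higher, with medians of -0.34 and 0.08. Dcn, decorin, measured 940, 750 and 775 CPM against 1681, 1759 and 1650 (log2 fold change -1.05 ± 0.13, adjusted p = 5.34e-04), and Mmp2, a gelatinase, measured 862, 822 and 905 CPM against 1871, 1968 and 1752 (46.3%). Postn, periostin, measured 144, 111 and 138 CPM against 336, 81.0 and 69.2, and was higher in sorted libraries without tumour replicate 1. Thy1, which T cells also carry, was higher at 160, 154 and 103 CPM against 14.5, 3.54 and 2.54. Among 17 matrix proteases and inhibitors 6 were higher and 5 lower; Mmp13 measured 744, 586 and 1127 CPM against 15.8, 1.12 and 0.812, and Timp2 measured 1048, 901 and 996 CPM against 1196, 1239 and 1186 and did not pass.

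Amino acid supply genes were mostly lower in sorted libraries, 15 of 19 tested with none higher. Without sorted replicate 1 or 3, 11 were lower, and without sorted replicate 2, 12 were. Without tumour replicate 1 the counts were 13 lower and 1 higher. Phgdh, the first enzyme of serine synthesis, measured 133, 142 and 130 CPM against 304, 318 and 267 (45.6% of the tumour mean, log2 fold change -1.13 ± 0.11, adjusted p = 1.52e-04). Asns, asparagine synthetase, measured 62.8, 66.7 and 69.5 CPM against 152, 169 and 126, and Aldh1l2, a mitochondrial folate enzyme, measured 42.0, 37.1 and 46.3 CPM against 111, 143 and 103 (35.1%). Cth, which makes cysteine, measured 2.45, 2.77 and 4.04 CPM against 13.3, 16.2 and 13.0 (21.8%). Atf4, the transcription factor that drives many of these genes, measured 403, 609 and 537 CPM against 820, 662 and 498 and did not pass (adjusted p = 0.257), nor did the cystine transporter Slc7a11, which was higher in sorted libraries without tumour replicate 1.

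In polyamine and nucleotide synthesis, 10 of 16 genes were lower and 1 higher, and 6 were lower without sorted replicate 2 or 3; without tumour replicate 1, 2 were higher. Amd1, which makes the aminopropyl donor of polyamines, measured 10.6, 4.48 and 10.5 CPM against 60.2, 38.5 and 51.4 (17.1%, log2 fold change -2.54 ± 0.33). That was the largest decrease in a ranking of genes that passed the test with a mean of at least 10 CPM in tumours. The ranking left out predicted genes, numbered clones, pseudogenes, antigen receptor segments, and small RNA, mitochondrially encoded and ribosomal protein genes. Amd1 was chosen after its values were seen, and it also belongs to the list. Reads of its near-identical copy Amd2 could be counted with it. Sat1, which breaks polyamines down, was higher at 238, 242 and 301 CPM against 101, 106 and 107. Slc6a9, a glycine transporter, and Vldlr, a lipoprotein receptor, also chosen after their values were seen, stood at 34.4% and 40.8% of the tumour mean.

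Of 32 Hox genes tested, 14 were lower in sorted libraries, 18 did not pass and none was higher. The count of lower genes was 5 to 18 when 1 library was left out: 7 without sorted replicate 1, 5 without sorted replicate 2 or 3, 6 without tumour replicate 2 or 6, and 18 without tumour replicate 1. Hoxc10 measured 24.9, 25.3 and 22.8 CPM against 35.6, 57.4 and 44.4 (53.2%), and Hoxa9 measured 7.77, 8.60 and 8.78 CPM against 14.9, 23.6 and 16.9 (45.4%). Receptor tyrosine kinases and ligands divided, with 10 of 22 lower and 4 higher. The higher share was near the 19.1% of all genes tested, of which 11.9% were lower. In this list 7 were higher without tumour replicate 1 and 2 without any 1 of the sorted libraries or tumour replicate 6. Axl, a receptor of the Mertk family, measured 687, 686 and 718 CPM against 1158, 1095 and 1159 (61.3%), while Hgf, the ligand of Met, measured 8.52, 10.4 and 11.9 CPM against 21, 6 and 1 counts. Of 10 YAP target genes, 4 were lower and none higher.

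**Figure D4:**
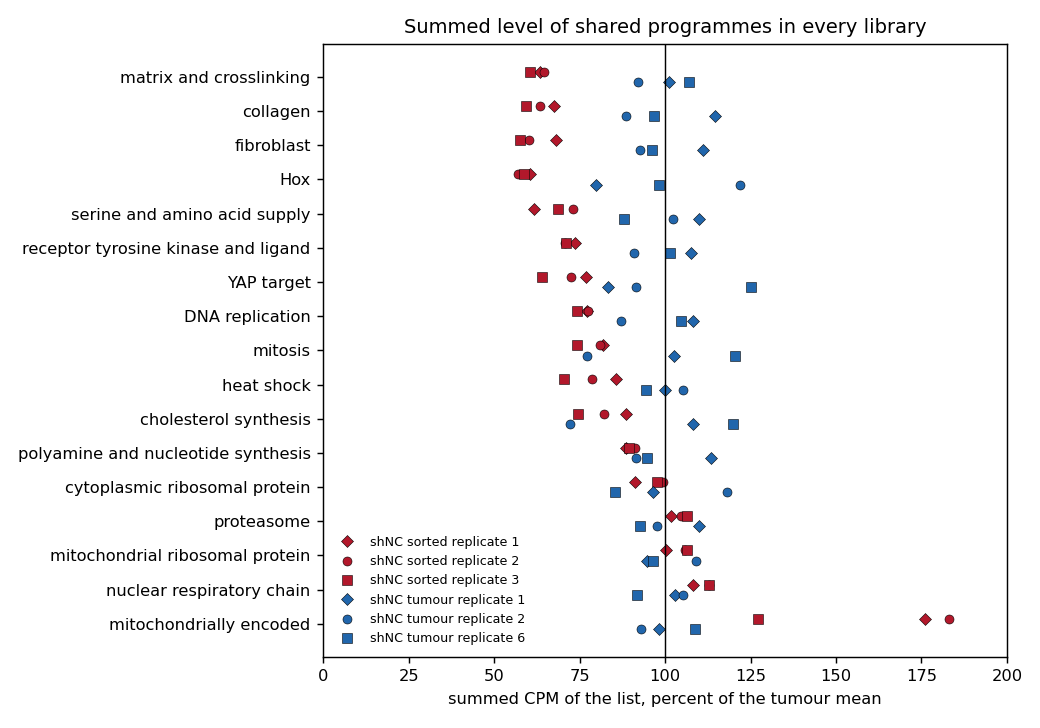
Summed CPM of 17 gene lists in every library, as a percentage of the mean of the 3 tumour libraries (line at 100); points are libraries. Sorted libraries lie near 60% for matrix, collagen and fibroblast lists, near 100% for ribosomal and proteasome genes, and above 125% for mitochondrially encoded genes.

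The same moderate shift was seen in the summed level of whole lists. In sorted libraries it was 62.8% of the tumour mean for matrix genes, 63.4% for collagens, 58.7% for Hox genes, 67.8% for amino acid supply, 76.3% for DNA replication and 79.0% for mitosis. Without tumour replicate 1 these were 63.2%, 68.4%, 53.3%, 71.3%, 79.5% and 80.0%. With 3 libraries against 3, an exact permutation test of a single summed level cannot give a p below 0.10. In the mitosis list tumour replicate 2, at 2502 CPM, fell within the range of the sorted libraries, 2410 to 2653 CPM.

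Housekeeping programmes were shared alike. Of 76 cytoplasmic ribosomal protein genes tested, 72 were shared alike and 2 were lower, with 0 to 4 lower when 1 library was left out and 8 higher without tumour replicate 2. The numbers of shared alike genes were 74 of 78 for mitochondrial ribosomal proteins and 34 of 37 for the proteasome. The median log2 fold changes of these lists were -0.05, 0.10 and 0.10, and with scaling by library size alone -0.21, -0.05 and -0.05. That scaling called 8 cytoplasmic and 6 mitochondrial ribosomal protein genes lower. Eef1a1, a translation factor, measured 5834, 5707 and 5372 CPM against 6006, 6314 and 5439 (log2 fold change -0.07 ± 0.12), and Lgals1, galectin-1, measured 1163, 1341 and 1273 CPM against 1142, 1535 and 1365. Other shared alike genes at the top of the FPKM ranking were B2m, H2-D1, Jun, Jund, Nfkbia, Eef2, S100a4 and Hsp90ab1. Hsp90ab1, a chaperone, was within 2-fold and still passed the test, at 3004, 2882 and 2646 CPM against 4631, 4381 and 4046 (adjusted p = 0.00653).

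Proliferation genes were present in both kinds of library. Of 23 DNA replication genes 22 were shared alike and 7 were lower, and of 23 mitosis genes 22 were shared alike and 3 were lower. The share of lower mitosis genes was near the 11.9% of all genes tested. With scaling by library size alone 14 replication and 11 mitosis genes were lower. Without each library in turn, 4 to 12 replication genes and 0 to 14 mitosis genes were lower. The replication count was 4 without sorted replicate 1 or 3 and 12 without tumour replicate 2, and the mitosis count was 0 without any 1 of the sorted libraries, 1 without tumour replicate 6 and 14 without tumour replicate 2. Mki67, the Ki-67 protein of cycling cells, measured 428, 413 and 347 CPM against 423, 306 and 536 (adjusted p = 0.772). Mcm6, a replicative helicase subunit, measured 315, 298 and 280 CPM against 492, 405 and 470 (65.3%, adjusted p = 0.00555). Replication-dependent histone genes went the other way in part, with 14 of 47 higher (9 without sorted replicate 1 and 8 without sorted replicate 2), while the abundant H1f2 was shared alike at 415, 339 and 428 CPM against 338, 459 and 387; these genes are near-identical copies. Cdkn2a, the locus of p16 and p19 that tumours often lose, measured 1.23, 1.42 and 1.07 CPM in sorted libraries and had no tumour count (at least 6.30-fold).

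Immediate early genes, which respond within minutes to stress or growth signals, were high in both groups. Of 19 genes 7 were higher in sorted libraries, 1 was lower and 9 were shared alike. Of the 19, 3 were higher without sorted replicate 2 and 4 without sorted replicate 3 or with scaling by library size alone. Jun measured 2941, 3396 and 3197 CPM against 1403, 4018 and 3735 (adjusted p = 0.918). Fos measured 2107, 2749 and 2613 CPM against 304, 1640 and 1457 and did not pass either (adjusted p = 0.138, and 0.0132 without tumour replicate 1). Zfp36, which destabilises cytokine mRNA, measured 1646, 2404 and 2257 CPM against 212, 736 and 664 (log2 fold change 1.97 ± 0.42, adjusted p = 0.00903). In Jun, Fos, Dusp1 and Zfp36 tumour replicate 1 was the lowest library of all. Heat shock genes were mostly within 2-fold, with 4 of 12 lower, 2 without sorted replicate 2 or 3, and 1, Hspa1a, higher, or 2 higher without tumour replicate 1.

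**Figure D5:**
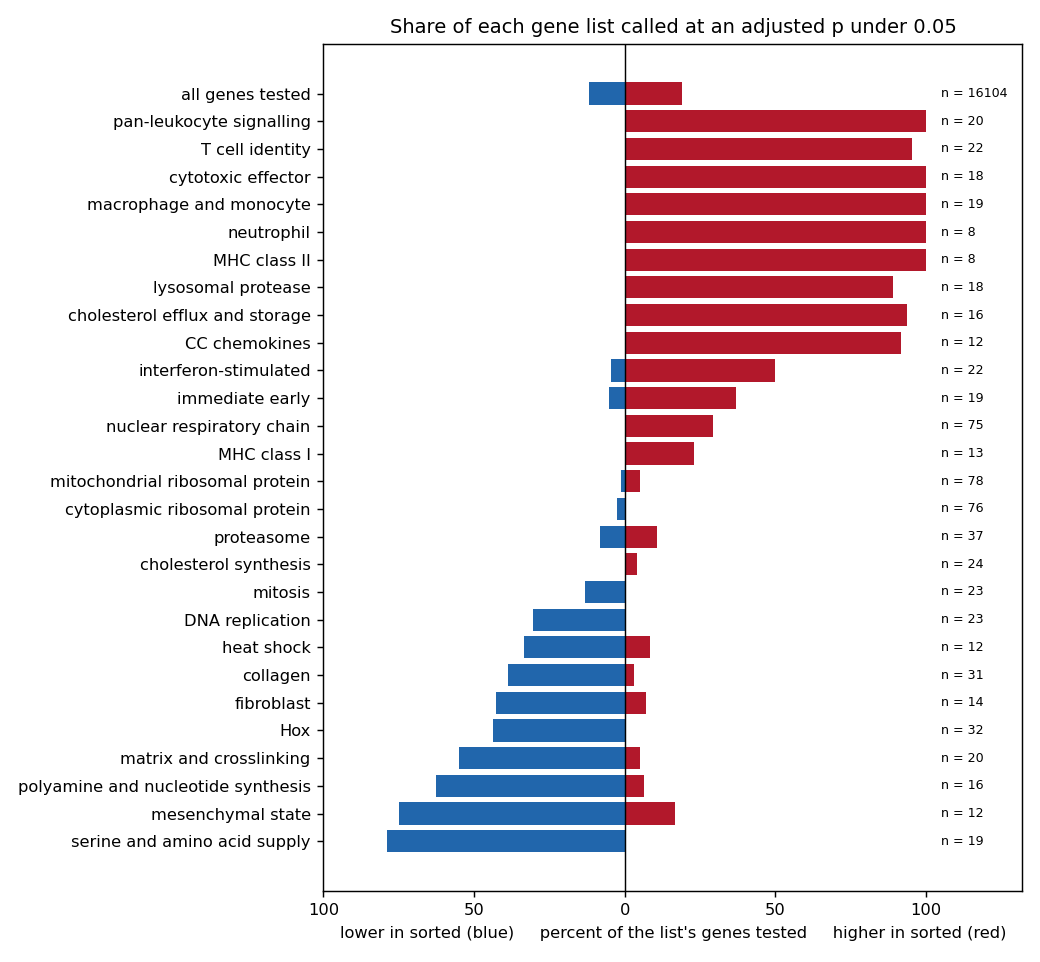
Share of each gene list called higher (red) or lower (blue) in sorted libraries at an adjusted p under 0.05, beside all genes tested (19.1% and 11.9%). The pan-leukocyte, T cell, cytotoxic, macrophage and neutrophil lists reach or approach 100% higher, ribosomal lists stay near 0 in both directions, and amino acid supply has 15 of 19 genes lower.

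Lysosomal and sterol handling genes were higher in sorted libraries. Of 18 lysosomal protease and hydrolase genes 16 were higher, and the list's summed level was 428% of the tumour mean. Psap, the precursor of lysosomal activator proteins, measured 4473, 5055 and 6298 CPM against 1335, 1146 and 1080 (log2 fold change 2.15 ± 0.17, adjusted p = 4.36e-05). Of 16 cholesterol efflux and storage genes 15 were higher. Abca1, the exporter of cellular cholesterol, measured 231, 240 and 308 CPM against 3.74, 4.32 and 3.50 (log2 fold change 6.07 ± 0.18), and Apoe, its apolipoprotein acceptor, measured 576, 914 and 1103 CPM against 11.6, 7.72 and 6.70. Plin2, which coats lipid droplets, measured 435, 443 and 571 CPM against 162, 194 and 115. Ch25h, which makes 25-hydroxycholesterol, measured 91.6, 69.9 and 86.9 CPM against 12, 6 and 4 counts. Nr1h2, a sterol receptor, did not pass, though it was higher without sorted replicate 1.

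Cholesterol synthesis, in contrast to handling, was shared: 18 of 24 genes were shared alike and 1, Ebp, was higher. When 1 library was left out, Ebp passed only without tumour replicate 2, and with scaling by library size alone none was higher and 4 were lower. Without tumour replicate 2, 7 of the 24 genes were lower in sorted libraries. In fatty acid metabolism, 3 of 18 genes were lower, beside 11.9% of all genes tested. The count was 1 without sorted replicate 3 and 5 without tumour replicate 2 or with scaling by library size alone. Scd1, the stearoyl desaturase, measured 152, 130 and 129 CPM against 283, 193 and 322 (adjusted p = 0.00624).

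Among iron and antioxidant genes 8 of 17 were higher and 1 lower. Fth1, ferritin heavy chain, measured 3088, 3757 and 4219 CPM against 877, 1029 and 772 (log2 fold change 2.05 ± 0.17), and Hmox1, which breaks down heme, measured 552, 544 and 1053 CPM against 246, 27.8 and 24.5. Hmox1 passed with all libraries and without tumour replicate 1, but not when any other library was left out. The lower gene was Nqo1, a quinone reductase. Without sorted replicate 3 or tumour replicate 6 the count of higher genes was 4, and without sorted replicate 2 it was 5.

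Energy genes were mostly shared. Of 75 nuclear respiratory chain genes 61 were shared alike and 22 were higher, 10 without sorted replicate 3, 11 without sorted replicate 2 or tumour replicate 6 and 29 without tumour replicate 2; with scaling by library size alone 13 were higher and 3 lower. Of 13 mitochondrially encoded genes 9 were higher, 13 without sorted replicate 3, 3 without sorted replicate 1 and 2 without sorted replicate 2. Sorted replicate 3 had the lowest sorted level of these: mt-Co1, a subunit of the terminal oxidase, measured 19941, 21058 and 14724 CPM against 10499, 10351 and 11861 (adjusted p = 0.0107). Of 19 glycolysis genes 9 were higher and 1 lower, and with scaling by library size alone 6 and 2. Aldoc, an aldolase, measured 24.1, 27.3 and 26.9 CPM against 0, 4 and 4 counts, Aldoa measured 1397, 1548 and 1503 CPM against 802, 1108 and 803, and Pkm was shared alike. Of 16 hypoxia response genes 3 were higher and 1 lower, or 2 and 4 with that scaling. The share of higher genes was near the 19.1% of all genes tested, of which 11.9% were lower. In that list Hilpda, a lipid droplet protein, measured 113, 150 and 175 CPM against 25.9, 21.3 and 13.0.

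Markers of other host cells varied in level. Of 8 endothelial genes tested, 3 were higher in sorted libraries, or 1 without sorted replicate 3; Pecam1, which leukocytes also carry, measured 13.8, 12.9 and 23.6 CPM against 5.32, 1.21 and 0.609, while Cdh5, which is restricted to endothelium, measured 0.995 to 3.28 CPM against 4.40, 1.02 and 0.152. Tumour replicate 1 was the highest tumour library for both. Only 3 of 17 epithelial genes were expressed enough to be tested, Epcam, Lgals4 and Cdh1. Epcam stayed at or below 1.83 CPM and Krt8, which was not tested, at or below 1.05 CPM. Lgals4, a gut galectin, measured 5.73, 8.60 and 8.65 CPM against 6.31, 13.6 and 8.47 (adjusted p = 0.504). Cdh1 measured 29.2, 31.6 and 41.5 CPM in sorted libraries against 2.43, 2.62 and 2.69 (log2 fold change 3.72 ± 0.20). Epcam was also called higher (adjusted p = 0.0377). The keratin genes Krt18 and Krt19, which were not tested, stayed at or below 1.18 and 1.71 CPM in every library. Which cells the Cdh1 RNA came from was not tested. In the pericyte list Pdgfrb measured 150, 151 and 139 CPM against 202, 272 and 266 (59.5% of the tumour mean) and Cspg4 measured 162, 182 and 188 CPM against 383, 307 and 348 (51.2%). Both were lower in sorted libraries, and none was higher, or 1 without tumour replicate 1. The part of such cells in any result was not tested.

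Fgf21 and its co-receptor gene were near the limit of detection in both groups, while the receptor gene Fgfr1 was well expressed. FGF21 is a hormone-like growth factor that signals through FGF receptors with the co-receptor beta-klotho, the product of Klb. Fgf21 had 0 counts in each sorted library and 0, 2 and 1 in the tumours, and Klb had at most 4 counts in any library. Fgfr1, the receptor, measured 193, 169 and 190 CPM in sorted libraries against 402, 367 and 297 (51.8% of the tumour mean, log2 fold change -0.95 ± 0.14, adjusted p = 0.00130). Of 15 FGF ligand, receptor and response genes tested, 6 were lower and 3 higher. The higher share was near the 19.1% of all genes tested, of which 11.9% were lower. Etv4, an FGF-induced transcription factor, measured 28.6, 28.0 and 28.1 CPM against 49.1, 63.1 and 52.3 (51.5%), while Dusp6, an ERK phosphatase also induced by FGF signals, measured 266, 262 and 276 CPM against 147, 206 and 245 and did not pass (adjusted p = 0.109, and 0.0432 without tumour replicate 6).

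Levels by chromosome were described without a test. Of 1224 genes tested on chromosome 7, 283 were higher in sorted libraries and 93 lower. Of 635 on chromosome 15, 93 were higher and 124 lower. Over all genes tested 19.1% were higher and 11.9% lower. Chromosome 7 did not stand alone: of 819 genes tested on chromosome 6, 206 were higher and 89 lower. The median log2 fold change of shared genes ranged from -0.23 on chromosome 18 to 0.04 on chromosome 7 over the autosomes and X. The 22 shared genes of the mitochondrial chromosome had a median of 0.55.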

How the data were processed

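RNA from 6 libraries was compared. The authors deposited a raw count and an FPKM value for each of 55487 listed genes in each library, per the file headers; the build is mm10, per the submitters' processing notes. The sources used here name no aligner, counter, annotation, filter or library strandedness, so reads of overlapping, antisense and near-identical genes cannot be separated. FPKM, as the authors deposited it, was used only to compare levels between genes.

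From the counts, 16104 genes passed edgeR's expression filter and were scaled by TMM (edgeR 4.0.16, R 4.3.3). The quasi-likelihood test compared 3 sorted with 3 tumour libraries, with Benjamini-Hochberg adjustment over all genes tested and a threshold of 0.05. Log2 fold changes are sorted minus tumour, with 95% intervals. CPM values are the usual depth-scaled counts, on TMM-adjusted library totals. Median-ratio, upper quartile and library size scaling, 2 other filters, DESeq2, limma, a fit to all 11 libraries and the omission of each library were tried. Simulated data of 16104 genes held 200 changed genes, each with a mean of at least 10 CPM and a random direction. On these the test recovered 19.4% of 1.5-fold, 80.6% of 2-fold and 100% of 4-fold changes, and 5.0% of its calls were false. The real comparison had 4995 calls, with large differences mostly higher in sorted libraries, so these rates may not hold for it.

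The groups, limits and 63 gene lists were chosen with earlier results of these data known, and the histone list was extended to further symbols once gene names were seen. Named genes were Fgf21, Klb, Fgfr1, Ptprc, the genes of highest FPKM in each class, and in each list members of highest FPKM, of largest change at a mean of at least 10 CPM, or that went against the list. Further members were named to show a role, after their values were seen. Promoters, 300 bases each, came from RefSeq (GRCm38.p6), where 25642 of 32851 matched a listed symbol. Some items are not reported here.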

Additional observations from a re-analysis of the deposited data

How the results depend on the processing

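The number of genes at least 8-fold higher in sorted libraries, 1270, became 823 with a filter at a mean of 5 CPM, which tests fewer genes. The number called lower, 1917, became 3204 with scaling by library size and ranged from 895 to 2039 when 1 library was left out. Genes at least 2-fold lower, 260, became 582 with scaling by library size and 158 with the 5 CPM filter, and ranged from 165 to 310 when 1 library was left out, the lowest without sorted replicate 2. Genes at least 8-fold lower, 3, became 5 with library size or upper quartile scaling, 10 with no filter and 8 with limma, and ranged from 4 to 7 when 1 library was left out. Higher genes made up 61.6% of calls, 45.8% with library size scaling, 69.8% with no filter, 74.2% without sorted replicate 2 and 73.2% without sorted replicate 3; the cause was not tested. The 497 sorted only genes became 243 at a level of at least 5 CPM, 217 with no tumour count and 747 with at most 0.5 CPM in tumours. The tumour only class, 1 gene, held 0 with no sorted count and 4 with at most 0.5 CPM, and 1 to 2 when 1 library was left out. Shared alike genes, 8648, became 3610 within 1.5-fold. The range of chromosome medians, 0.27, became 0.31 over all genes tested. Of 161 named genes tested, 35 changed their call under at least 1 alternative; Col1a1, Col1a2 and Postn turned to higher in sorted libraries without tumour replicate 1. Their log2 fold changes, which were -0.37, -0.30 and -0.31 with all libraries, ranged from -0.67 to 0.43, -0.70 to 1.18 and -0.67 to 0.81 when 1 library was left out, and the 2 last were 0.60 and 0.39 with limma. No paired analysis was possible because each sorted title joins several numbers while each tumour title holds 1. Counts of 0 limit statements of absence to the level of 3 counts.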
